A study of Mus musculus with 36 samples.

Results

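Transcripts of 10 genes of the ATF4 stress and serine synthesis pathway were followed through the Chd8 allelic series in the mouse embryonic forebrain. The genes were the stress response factors Atf4, Ddit3, Trib3 and Chac1, the asparagine synthetase Asns, the serine synthesis enzymes Phgdh, Psat1 and Psph, and the mitochondrial one-carbon enzymes Shmt2 and Mthfd2. They were chosen by name, and are 10 of the 46603 genes in each count table. All 10 had enough counts to be tested at both stages.

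At E12.5, neocortices of single embryos were sequenced from Chd8+/+, Chd8+/-, Chd8neo/neo and Chd8neo/- mice on a C57Bl/6J background (n = 3 each). The neo allele carries a selection cassette next to exon 3 that lowers Chd8 expression, and the - allele lacks exon 3 in every cell, including cells that are not neural. At E10.5, telencephalic vesicles of 2 embryos were pooled for each library, with 3 libraries of cKO embryos (sox1-Cre; Chd8f/f), in which Cre is active in the neuroepithelium, and 3 of Ctrl embryos. The labels give the Ctrl group as a combination of Chd8f/f and Chd8f/+, without saying which library was which, and name no Cre for it, whereas the study's text names Chd8f/f alone. The replicates came from different litters, and each library was sequenced in 2 runs, whose counts were added. All 3 mutant groups at E12.5 were compared with the same Chd8+/+ libraries. Stage, dissection, pooling and sequencing run cannot be told apart between E10.5 and E12.5, so values of both stages are set side by side without a test.

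ATF4 is a transcription factor made when the integrated stress response slows general translation. Kinases that sense amino acid shortage, unfolded proteins, haem deficiency or viral RNA phosphorylate the initiation factor eIF2, which favours translation of the Atf4 mRNA, and ATF4 then activates genes for amino acid uptake and synthesis, tRNA charging and, when stress lasts, cell death. The serine pathway starts from a glycolytic intermediate, passes through PHGDH, PSAT1 and PSPH, and feeds the folate cycle, in which SHMT2 and MTHFD2 supply one-carbon units for nucleotide synthesis in dividing cells. Because ATF4 is controlled to a large part at translation, its mRNA level is not a measure of the protein, which was not measured here.

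ATF4 binds composite sites, for which the letters TGATGNAA were searched on both strands of the RefSeq promoter windows (GRCm38.p6, 250 bases before to 50 bases after each start). The letters were found in the windows of 3 of the 10 genes, and in 1303 of all 32817 windows (3.97%). Some genes, such as Psat1, have additional windows, so the counts per gene and per window are unlike. The 3 stretches below are those that hold the searched letters, with the motif in capitals, each written 5′ to 3′ on the strand that carries it. The match is a description and does not show that the factor was bound.
Chac1: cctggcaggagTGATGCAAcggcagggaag
Trib3: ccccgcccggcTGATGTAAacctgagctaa
Asns: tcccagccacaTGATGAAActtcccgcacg
The Chac1 stretch lies at chr2:119351038-119351067 and the Trib3 stretch at chr2:152344028-152344057, both on the strand opposite to the gene. The Asns stretch, at chr6:7693214-7693243 on the minus strand, is on the gene's own strand, 23 bases before its start. The windows of Atf4, Ddit3, Phgdh, Psat1, Psph, Shmt2 and Mthfd2 did not hold these letters.

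Total counts per library lay between 38774591 and 68488879. Levels are given as CPM, the read counts scaled to library size by TMM, or, where genes are compared with each other, as CPM per kilobase of exon (FPKM). The quasi-likelihood test of edgeR was applied to the counts of all genes, and a gene is said to be called, or to have risen or fallen, where the p adjusted by Benjamini-Hochberg over all genes was under 0.05. These p-values set the difference between groups against the spread between libraries within groups. That spread was estimated over all libraries of the fit of each stage, with information shared between genes. Chd8 itself, the check of the labels, fell in every mutant group against its control, with log2 fold changes of -0.51 in Chd8+/-, -0.18 in Chd8neo/neo, -0.67 in Chd8neo/- and -0.50 in cKO (edgeR, adjusted p = 1.4e-04, 0.0201, 8.6e-07 and 0.00109). The fall was smallest in Chd8neo/neo, whereas the study's RT-PCR and Western blots gave a larger reduction in Chd8neo/neo than in Chd8+/-. The check therefore covers the direction and not the order of the genotypes. The deposited counts cover the whole gene and so include transcripts that lack the deleted exon. That does not apply to Chd8neo/neo, in which both alleles keep exon 3, and the cause of the different order was not tested. All 5 telencephalon markers checked were detected in every library, the lowest being Six3 at 20 CPM and Emx1 at 24.1 CPM, and edgeR called 0 of them in any of the 3 mutant groups at E12.5 against Chd8+/+ or in cKO. In Chd8neo/neo 1 was at an unadjusted p under 0.05 and was called by DESeq2.

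Of the 10 genes, 1 changed with Chd8 genotype. Atf4 fell in the cKO telencephalon at E10.5, and the other 9 genes were not called there, where 11.4% of the 18435 genes tested were called, 5.7% of the genes tested lower and 5.75% higher. That background rests on single libraries: edgeR called 2110 genes with all libraries, 538 without cKO replicate 2, 826 without cKO replicate 3 and 951 without Ctrl replicate 3. At E12.5, 0 of the 10 genes were called by edgeR in any of the 5 genotype comparisons. DESeq2 called 0 as well, with 9 or 10 of the genes given an adjusted p. At an unadjusted edgeR p under 0.05 the numbers were 0 in Chd8+/-, 1 in Chd8neo/neo (Ddit3) and 3 in Chd8neo/- (Chac1, Trib3 and Ddit3), each against Chd8+/+. They were 3 in Chd8neo/neo against Chd8+/- (Trib3, Phgdh and Atf4) and 2 in Chd8neo/- against Chd8neo/neo (Trib3 and Atf4). The share of all genes at this unadjusted threshold is not given here, so these numbers have no background. The same holds for the counts of list genes and markers at an unadjusted p. Over all 18810 genes tested at E12.5 the shares called were 0.0213% in Chd8+/-, 8.16% in Chd8neo/neo and 11.5% in Chd8neo/- against Chd8+/+, and a count of 0 of 10 lies near these shares.

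**Figure D1:**
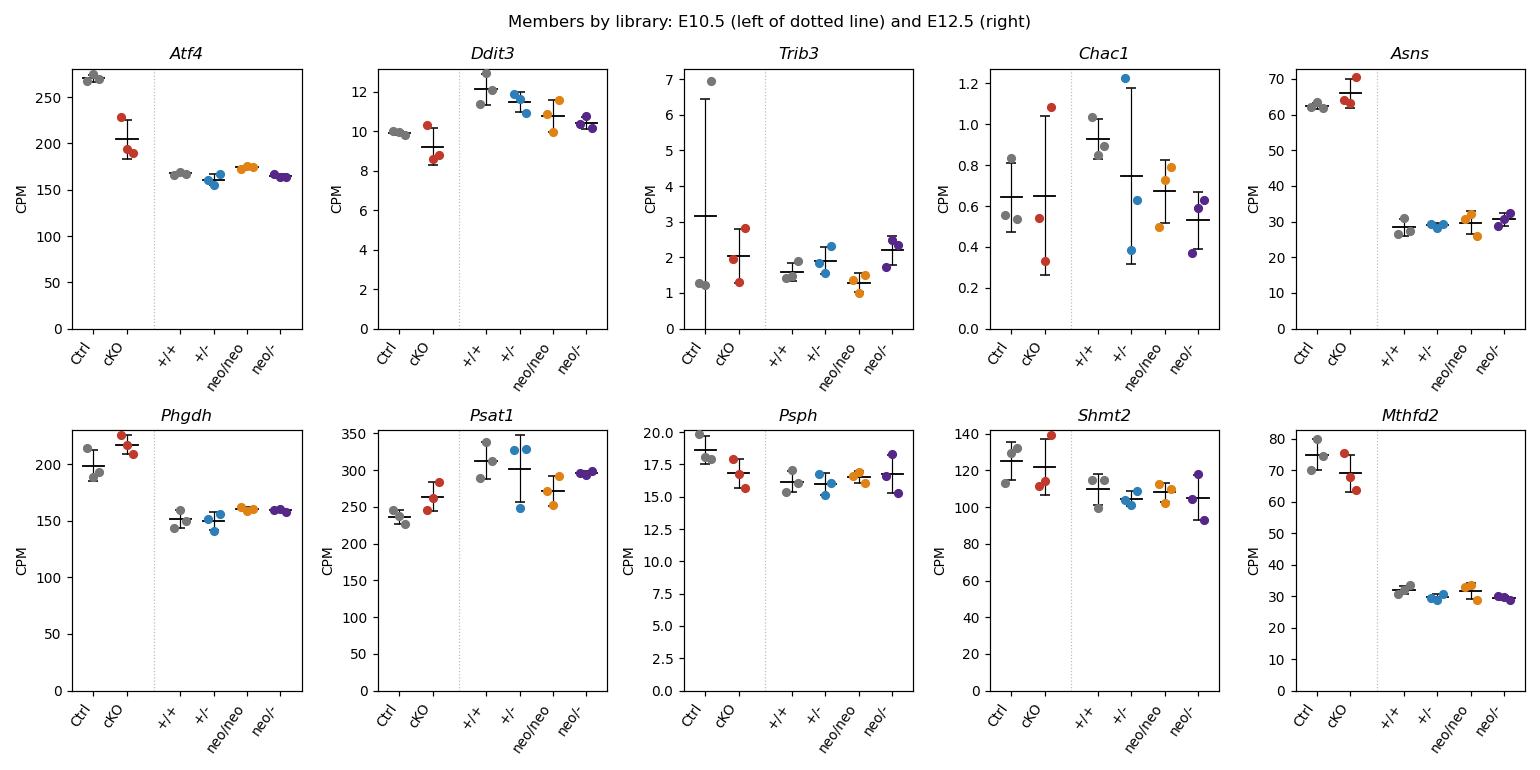
CPM of each of the 10 genes in each library. Dots are libraries, bars the mean and SD of 3 libraries (for Trib3 in Ctrl the lower SD bar is cut at 0), Ctrl and cKO are E10.5 and the other 4 groups E12.5. The 3 cKO libraries lie below the 3 Ctrl libraries for Atf4, whereas most groups overlap in the other panels.

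Atf4, the factor that gives the pathway its name, lies at chr15:80255184-80257540 and was the most highly expressed of the 10 genes per length in all 6 groups, with a mean of 157 FPKM in Ctrl and of 93.4 to 101 FPKM in the 4 groups at E12.5. The Ctrl libraries had 268, 274.8 and 269 CPM, and the cKO libraries had 229, 194 and 190 CPM. Each cKO library lay below each Ctrl library, and cKO replicate 1 was the closest to the controls. The difference was -0.40 on the log2 scale (SE 0.073, 95% interval -0.56 to -0.25; edgeR, adjusted p = 0.00657), a level of 0.755 of that in Ctrl. The call was made in all 14 alternatives, and was weakest without cKO replicate 2 (log2 fold change -0.37, edgeR adjusted p = 0.0477). None of the exon bases of Atf4 overlaps another gene, and no stretch of the length of a read is shared with transcripts of another gene.

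Several markers of other tissues moved at E10.5 beside Atf4. Of 6 mesenchyme markers, 3 were called higher in cKO (Col1a2, Pdgfrb and Col3a1), and the summed level of the 6 was 902 to 1056 CPM in cKO against 708 to 794 CPM in Ctrl. Of 5 endothelial markers 1 (Cdh5) and of 6 macrophage markers 1 (Cx3cr1) were also called higher, where 5.75% of all genes rose. Of 6 neural progenitor markers edgeR called 0, with 2 at an unadjusted p under 0.05 and 2 called by DESeq2. Of 5 telencephalon markers it called 0, with 1 at an unadjusted p under 0.05 and 0 called by DESeq2. In whole tissue, fewer cells that express a gene and less RNA of it per cell cannot be told apart. The part of these cells in the fall of Atf4 was not tested.

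At E12.5 the level of Atf4 hardly differed among genotypes. The Chd8+/+ libraries had 166, 170 and 167 CPM. The Chd8+/- libraries had 161, 155 and 167 CPM. The Chd8neo/neo libraries had 173, 175 and 175 CPM. The neo/neo libraries all lay above those of Chd8+/+ and Chd8+/-, but by a small amount. The Chd8neo/- libraries had 167, 164 and 163 CPM. The log2 fold change in Chd8neo/neo against Chd8+/+ was 0.056 (SE 0.036; edgeR, adjusted p = 0.356), and against Chd8+/- it was 0.11 (SE 0.036; edgeR, adjusted p = 0.0760). Against Chd8+/+ the 95% intervals ran from -0.14 to 0.019 in Chd8+/-, from -0.021 to 0.13 in Chd8neo/neo and from -0.10 to 0.051 in Chd8neo/-, none of which holds a change of the size seen in cKO. Over the 12 libraries at E12.5, the genes whose log2 CPM followed that of Atf4 most closely were H1f0, Fpgs and Snora17 (Pearson r = 0.91, 0.86 and 0.85 among 18809 other genes). As Atf4 varied so little, these correlations are a description of the 12 libraries, which share sequencing runs and scaling.

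**Figure D2:**
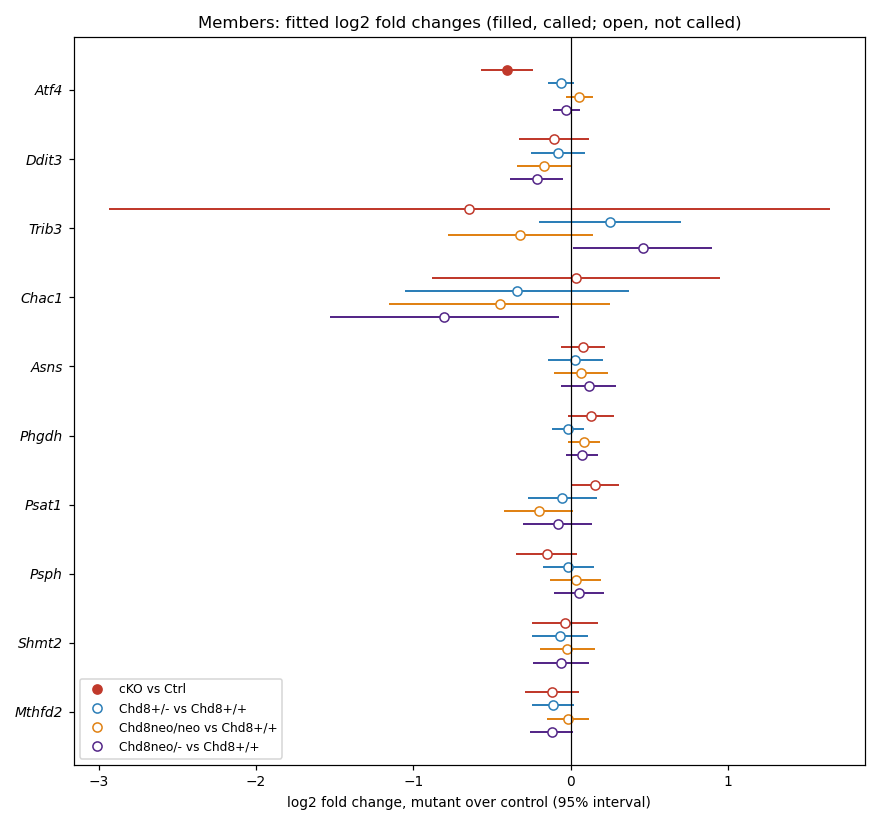
Fitted log2 fold changes of the 10 genes with 95% intervals, for cKO against Ctrl at E10.5 and for the 3 mutant genotypes against Chd8+/+ at E12.5. Filled circles are called and open circles are not. Atf4 in cKO is the filled circle, and the widest intervals are those of Trib3 and Chac1, which had the fewest counts.

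Ddit3 encodes CHOP, the factor through which lasting stress promotes cell death. It was expressed at a low level, with 9.82 to 10 CPM in the Ctrl libraries. The cKO libraries had 10.3, 8.58 and 8.79 CPM and overlapped with them (log2 fold change -0.11, SE 0.098; edgeR, adjusted p = 0.526). At E12.5 it had 11.4, 13 and 12.1 CPM in Chd8+/+ and 10.4, 10.8 and 10.2 CPM in Chd8neo/-, without overlap. This difference of -0.21 (SE 0.076) did not pass (edgeR, adjusted p = 0.0853), and for 16.9% of all genes each Chd8neo/- library lay below each Chd8+/+ library. The Chd8neo/neo libraries, with 10.9, 9.97 and 11.6 CPM, reached into the range of Chd8+/+ (log2 fold change -0.17, SE 0.076; edgeR, adjusted p = 0.185). Of the exon bases of Ddit3, 4.73% overlap genes on the opposite strand, from which reads could not be told apart by the counting at E12.5, which was run without a strand option.

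Trib3, a pseudokinase that dampens ATF4 and AKT signalling, had 1 library far from the others of its group. Ctrl replicate 3 had 6.94 CPM (388 counts), whereas Ctrl replicates 1 and 2 had 1.28 and 1.23 CPM. The cKO libraries had 1.96, 1.31 and 2.82 CPM. Both runs of Ctrl replicate 3 held the high value, with 206 and 182 counts against 24 to 38 in the runs of the other Ctrl libraries. The fold change therefore rests on that library: with it, the log2 value was -0.64 (SE 0.86; edgeR, adjusted p = 0.694), and without it 0.69 (SE 0.30; edgeR, adjusted p = 0.215). The high value was not shared by Chac1, Asns or Ddit3, as Ctrl replicate 3 had the lowest value of the 3 Ctrl libraries for each of them (0.537, 61.7 and 9.82 CPM).

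At E12.5 the mean of Trib3 lay below Chd8+/+ in one hypomorph and above it in the other, neither of them called. It had 1.43, 1.49 and 1.89 CPM in Chd8+/+. It had 1.37, 0.992 and 1.51 CPM in Chd8neo/neo, and 1.73, 2.5 and 2.35 CPM in Chd8neo/-. All Chd8neo/- libraries were above all Chd8neo/neo libraries, with 58 to 80 counts per library in the latter and 80 to 140 in the former. The difference between these genotypes, 0.78 on the log2 scale (SE 0.21), had an unadjusted edgeR p of 0.00198 but did not pass over all genes (adjusted p = 0.445). In this comparison 3 genes were called among all tested, a share of 0.0159%. The share of all genes whose groups were separate in it is not given here. Against Chd8+/+ the log2 values were 0.46 (SE 0.20; edgeR, adjusted p = 0.167) in Chd8neo/- and -0.32 (SE 0.21; edgeR, adjusted p = 0.375) in Chd8neo/neo.

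Chac1, which degrades glutathione and is among the most strongly induced ATF4 targets in stressed cells, was the lowest of the 10 genes per length in 6 of the 6 groups. It had 1.04, 0.85 and 0.893 CPM in Chd8+/+, or 36 to 53 counts per library. The values were 0.496, 0.727 and 0.791 CPM in Chd8neo/neo and 0.368, 0.589 and 0.631 CPM in Chd8neo/-. Both hypomorphs lay below Chd8+/+ in each library. The log2 fold changes were -0.45 (SE 0.32; edgeR, adjusted p = 0.421) and -0.80 (SE 0.34; edgeR, adjusted p = 0.142). With only the 2 groups in the fit, the second was called (edgeR, adjusted p = 0.0379). At E10.5 the cKO libraries, with 0.54, 0.331 and 1.08 CPM, lay on both sides of the Ctrl libraries, with 0.554, 0.836 and 0.537 CPM. At 17 to 73 counts per library, changes of the size seen for Atf4 were not detectable for Chac1, whose 95% interval in cKO ran from -0.87 to 0.94 on the log2 scale.

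Asns makes asparagine from aspartate and glutamine and is a classical ATF4 target. It was not called in any comparison. Its level was 62.2, 63.4 and 61.7 CPM in Ctrl and 64.2, 63.2 and 70.7 CPM in cKO (log2 fold change 0.08, SE 0.062; edgeR, adjusted p = 0.444). All 12 libraries at E12.5 lay between 26 and 32.5 CPM, with overlap between Chd8+/+ and each mutant genotype. The 95% interval in cKO, -0.06 to 0.21, did not reach the fall of Atf4. The level at E10.5 lay above that at E12.5 in every library, as it did for Atf4, Phgdh and Mthfd2, but stage and tissue preparation cannot be told apart.

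The 3 enzymes of serine synthesis were among the more abundant genes of the set, apart from Psph. Phgdh, which carries out the first step, had 214, 189 and 193 CPM in Ctrl and 225, 217 and 209 CPM in cKO. The ranges overlapped, and the difference of 0.13 (SE 0.064) did not pass (edgeR, adjusted p = 0.223). At E12.5 its 12 values lay between 141 and 162 CPM, and those of Chd8neo/neo (162, 158 and 160 CPM) were above those of Chd8+/- (151, 141 and 156 CPM). That difference was 0.10 (SE 0.045; edgeR, adjusted p = 0.193), in a comparison in which 5.28% of genes were called. The share of all genes whose groups were separate in this comparison is not given here. Of the stretches of read length in Phgdh transcripts, 35.8% also occur in transcripts of 13 other genes, so its counts are uncertain to that degree.

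Psat1, the aminotransferase of the second step, had 246, 238 and 227 CPM in Ctrl and 245, 262 and 284.2 CPM in cKO. cKO replicate 1 was within the range of Ctrl and the other cKO libraries were above it. The log2 fold change of 0.16 (SE 0.066) had an unadjusted edgeR p of 0.0352 and an adjusted p of 0.149. In the neocortex, Psat1 had 289, 338 and 312 CPM in Chd8+/+. It had 328, 249 and 329 CPM in Chd8+/- and 271, 252 and 293 CPM in Chd8neo/neo. The spread within Chd8+/- was set by replicate 2, the lowest of the 12 libraries. The Chd8neo/- libraries were tightly grouped at 296, 293 and 298 CPM. Chd8neo/neo was at -0.20 (SE 0.097) against Chd8+/+ (edgeR, adjusted p = 0.218). Without Chd8+/- replicate 2, whose spread enters the shared fit, the value was -0.21 and was called (edgeR, adjusted p = 0.0491). The same omission brought the difference from Chd8+/- from -0.15 (adjusted p = 0.380) to -0.28 (edgeR, adjusted p = 0.0425).

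Psph, the phosphatase that releases serine in the last step, was the least abundant enzyme of the route, with 19.9, 18.1 and 18 CPM in Ctrl and 17.9, 16.8 and 15.7 CPM in cKO. The groups were separate by a narrow margin, and the difference of -0.15 (SE 0.085) was not called (edgeR, adjusted p = 0.281). For 16.6% of all genes each cKO library lay below each Ctrl library. At E12.5 all 12 values lay between 15.1 and 18.3 CPM, with overlap in every comparison. In all, 10.4% of the exon bases of Psph lie within Cct6a on the opposite strand, so its counts are uncertain for that part. Of the 3 enzymes, 2 were thus above and 1 below Ctrl in cKO on average, and none was called.

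Shmt2, which splits serine into glycine and a one-carbon unit in mitochondria, had 113, 129 and 132 CPM in Ctrl and 112, 114 and 139 CPM in cKO (log2 fold change -0.04, SE 0.092; edgeR, adjusted p = 0.834). Its 12 values at E12.5 lay between 93.1 and 118 CPM, and both ends of that range were Chd8neo/- libraries. Mthfd2, the next enzyme and one that is typical of embryonic and dividing cells, had 70.1, 80 and 74.6 CPM in Ctrl and 75.3, 67.8 and 63.7 CPM in cKO (log2 fold change -0.12, SE 0.075; edgeR, adjusted p = 0.333). At E12.5 it had 30.6, 32 and 33.4 CPM in Chd8+/+. The Chd8neo/- libraries, with 29.9, 29.7 and 28.7 CPM, and the Chd8+/- libraries, with 29.3, 28.9 and 30.6 CPM, lay just below. These differences were -0.12 (SE 0.061) and -0.11 (SE 0.061) on the log2 scale (edgeR, adjusted p = 0.227 and 0.815). Neither was called, and Chd8neo/neo overlapped with Chd8+/+.

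Across the 10 genes, the median log2 fold change was -0.07 in cKO, -0.06 in Chd8+/-, -0.02 in Chd8neo/neo and -0.04 in Chd8neo/-, each against its control, with medians over all genes between -0.0019 and 0.0053. In cKO 2 of the 10 genes lay below Ctrl in every library (Atf4 and Psph) and 0 above it, where 16.6% of all genes lay below and 15.7% above. In Chd8neo/neo 1 lay above Chd8+/+ (Atf4) and 1 below (Chac1), against 12.5% and 13.5% of all genes. In Chd8neo/- 3 lay below (Ddit3, Chac1 and Mthfd2) and 0 above, against 16.9% and 16.4%. Of these 7 separations, the fall of Atf4 in cKO was the 1 that was called. For the other comparisons, among them Chd8+/- against Chd8+/+, no share of separate genes is given here. Separations in those comparisons, such as that of Mthfd2 in Chd8+/-, therefore have no background.

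Other genes of the stress response were called in numbers that differed between lists. Of 17 tested ATF4-linked effectors besides the 10 genes, 3 rose in cKO and 0 fell, against 5.75% and 5.7% of all genes. Sesn2, a brake on mTORC1 signalling, rose from 19.2, 22.3 and 19.4 CPM in Ctrl to 74.6, 88.3 and 98.9 CPM in cKO (log2 fold change 2.1, SE 0.11; edgeR, adjusted p = 8.5e-06). Pmaip1, which encodes the cell death protein NOXA, rose by 1.40 (SE 0.13; edgeR, adjusted p = 2.3e-04) and the death receptor gene Tnfrsf10b by 1.31 (SE 0.098; edgeR, adjusted p = 3.2e-05). All 3 are also known targets of p53, and Sesn2 and Pmaip1 stand in both the effector list and the list of p53 targets. Of 16 p53 targets, 14 rose in cKO and 0 fell, against 5.75% and 5.7% of all genes, with a median of 1.22. The study had reported the p53 pathway as changed in these same cKO data, so this count is a description. The effector list as a whole had a median of 0.04.

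At E12.5, 0 of 16 tested effectors were called by edgeR in Chd8neo/neo, where 8.16% of all genes were called. There 6 effectors were at an unadjusted p under 0.05 and 0 were called by DESeq2. In Chd8neo/- 2 fell, the stress-induced mTORC1 inhibitor Ddit4 (log2 fold change -0.30, SE 0.085; edgeR, adjusted p = 0.0349) and the ER-stress gene Herpud1 (-0.22, SE 0.068; edgeR, adjusted p = 0.0489). These calls were made in 13 and 7 of 21 alternatives, and neither was made without Chd8+/+ replicate 2 or 3 or without Chd8neo/- replicate 1 or 3 (edgeR, adjusted p between 0.0661 and 0.197). Ddit4 was also not called without Chd8+/+ replicate 1, and Herpud1 not without Chd8neo/- replicate 2, Chd8+/- replicate 1 or 3 or Chd8neo/neo replicate 1. Over all genes 5.99% fell in Chd8neo/-, where 2 of the 16 effectors did. Sesn2 stayed between 11.9 and 15.2 CPM in all 12 libraries.

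The sensors and eIF2 machinery that act ahead of ATF4 had median log2 fold changes of 0.016 in cKO, 0.042 in Chd8neo/neo and 0.030 in Chd8neo/-. Of 18 genes, 1 rose in cKO (Gcn1l1, which lets the kinase GCN2 sense uncharged tRNA; log2 fold change 0.33, SE 0.077; edgeR, adjusted p = 0.0219), and it was not called without Ctrl replicate 3 or cKO replicate 2 or 3 (edgeR, adjusted p = 0.0649, 0.0952 and 0.0639). In Chd8neo/neo 0 were called by edgeR, with 2 at an unadjusted p under 0.05 and 0 by DESeq2. Over all genes, 5.75% rose in cKO, 8.16% were called in Chd8neo/neo, and 5.48% rose in Chd8neo/-. In Chd8neo/- Eif2s1, the subunit that is phosphorylated, rose by 0.20 (SE 0.042; edgeR, adjusted p = 0.00774) and Eif2b2 by 0.16 (SE 0.047; edgeR, adjusted p = 0.0418). The latter was called in 5 of 21 alternatives and was lost without any library of Chd8+/+ or Chd8neo/- (edgeR, adjusted p between 0.0506 and 0.155), and without Chd8+/- replicate 1 or 3 or Chd8neo/neo replicate 1 or 2.

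Amino acid transporters were called at E12.5. Slc1a5, a glutamine and neutral amino acid carrier, had 42.8, 33.4 and 38.7 CPM in Chd8+/+ and 53.4, 52.8 and 49.7 CPM in Chd8neo/neo (log2 fold change 0.44, SE 0.078; edgeR, adjusted p = 0.00596). It rose by 0.33 (SE 0.078) in Chd8neo/- (edgeR, adjusted p = 0.0151), a call lost without Chd8neo/- replicate 1 or 2 (edgeR, adjusted p = 0.0557 and 0.0720). Slc43a1, which carries branched-chain amino acids, rose by 0.35 (SE 0.064) and 0.42 (SE 0.064) in these genotypes (edgeR, adjusted p = 0.00703 and 0.00122), and the cationic amino acid carrier Slc7a1 fell by 0.27 in Chd8neo/- (SE 0.056; edgeR, adjusted p = 0.00707). Thus 2 of 12 transporters rose in Chd8neo/neo, where 3.71% of all genes rose. The study had named Slc1a5 as an example of a change in Chd8neo/neo from these data. The list was chosen with earlier results known, so its counts are a description. In Chd8neo/- 2 rose and 1 fell, against 5.48% and 5.99% of all genes. In cKO edgeR called 0 of 12, with 3 at an unadjusted p under 0.05 and 1 called by DESeq2. Of 20 cytosolic aminoacyl-tRNA synthetases, which charge tRNAs, 4 rose in cKO, against 5.75% of all genes, among them Hars, Wars and Kars by 0.24, 0.21 and 0.21 (SE 0.059, 0.055 and 0.055; edgeR, adjusted p = 0.0279, 0.0310 and 0.0313). These 3 calls were lost without Ctrl replicate 3 or cKO replicate 2 or 3 (edgeR, adjusted p between 0.0805 and 0.147). Hars and Kars were also not called without Ctrl replicate 2, nor Wars without replicate 1 of Ctrl or cKO (edgeR, adjusted p between 0.0526 and 0.0692). In Chd8neo/neo and Chd8neo/- edgeR called 0 of 20, with 3 and 1 at an unadjusted p under 0.05 and 1 and 0 called by DESeq2.

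Several enzymes and carriers next to the members in serine, folate, transsulfuration and proline metabolism were called. Of 30 genes, 5 rose and 3 fell in Chd8neo/neo, against shares over all genes of 3.71% higher and 4.45% lower. In Chd8neo/- 5 rose and 6 fell, against 5.48% and 5.99%. In cKO 3 rose and 1 fell, against 5.75% and 5.7%. The medians of the list were 0.05, 0.02 and 0.01. The numbers called depended on single libraries, lying between 4 and 14 in Chd8neo/neo and between 6 and 11 in Chd8neo/- with each library left out. The lowest were found without Chd8neo/neo replicate 2 and without any of the Chd8neo/- replicates, and the highest in Chd8neo/neo without its replicate 3.

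Sfxn1, which carries serine into mitochondria and so stands directly ahead of SHMT2, fell at both stages. It had 118, 118 and 118 CPM in Ctrl and 85.3, 91.6 and 88.5 CPM in cKO (log2 fold change -0.42, SE 0.054; edgeR, adjusted p = 0.00109). At E12.5 it had 105, 108 and 111 CPM in Chd8+/+ and 90.9, 89.9 and 91.8 CPM in Chd8+/-. The Chd8neo/neo libraries had 87.4, 86.3 and 79.4 CPM, and the Chd8neo/- libraries 71.1, 73.2 and 71.4 CPM. No group overlapped with another at E12.5, and the order was Chd8+/+, Chd8+/-, Chd8neo/neo and Chd8neo/-. Every library lay below every Chd8+/+ library for 13.5% of all genes in Chd8neo/neo and for 16.9% in Chd8neo/-. The share of all genes with the full order is not given here. Sfxn1 was named for its low adjusted p in these data, so the order is a description. Against Chd8+/+ the log2 fold changes were -0.36 (SE 0.042) in Chd8neo/neo and -0.59 (SE 0.042) in Chd8neo/- (edgeR, adjusted p = 9.5e-04 and 2.5e-06), and both were called in all 21 alternatives. The fall of 0.25 in Chd8+/- was not called (SE 0.042; edgeR, adjusted p = 0.101, called in 4 of 21 alternatives), nor were the steps from Chd8+/- to Chd8neo/neo and from Chd8neo/neo to Chd8neo/- (edgeR, adjusted p = 0.138 and 0.240).

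Mtrr, which reactivates methionine synthase, rose in the same 3 groups, from 17.8, 18.6 and 17.6 CPM in Chd8+/+ to 25.3, 23.5 and 23.3 CPM in Chd8neo/neo and 26, 25.2 and 22.6 CPM in Chd8neo/-. The log2 fold changes were 0.41 (SE 0.062) and 0.44 (SE 0.062) (edgeR, adjusted p = 0.00255 and 6.2e-04), and in cKO 0.44 (SE 0.066; edgeR, adjusted p = 0.00251). Shmt1, the cytosolic counterpart of Shmt2, rose from 52.8, 55.9 and 56 CPM to 73.9, 72.9 and 62.9 CPM in Chd8neo/neo and 71.4, 70.7 and 66.5 CPM in Chd8neo/- (log2 fold changes 0.35 and 0.34, SE 0.062 each; edgeR, adjusted p = 0.00593 and 0.00343). The calls of Mtrr and Shmt1 in these genotypes held in all alternatives. In cKO Shmt1 was 0.17 above Ctrl (SE 0.056) and was not called (edgeR, adjusted p = 0.0794).

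Cbs, the entry enzyme of transsulfuration, was low, with 3.64, 4.13 and 3.95 CPM in Chd8+/+, and fell by 0.94 on the log2 scale in Chd8neo/neo and by 0.82 in Chd8neo/- (SE 0.20 each; edgeR, adjusted p = 0.0133 and 0.0170; called in 18 and 16 of 21 alternatives). The formyl-tetrahydrofolate dehydrogenase Aldh1l2 fell by 0.31 in Chd8neo/neo and by 0.25 in Chd8neo/- (SE 0.073 each; edgeR, adjusted p = 0.0217 and 0.0392; called in 18 and 12 of 21 alternatives). In Chd8neo/neo the calls of Cbs and Aldh1l2 were lost without Chd8+/+ replicate 2 or Chd8neo/neo replicate 1 or 2 (edgeR, adjusted p between 0.0521 and 0.0908). In Chd8neo/- that of Cbs was lost without Chd8+/+ replicate 2 or 3 or Chd8neo/- replicate 1 or 2, and that of Aldh1l2 without any library of either group (edgeR, adjusted p between 0.0511 and 0.164). Its cytosolic counterpart Aldh1l1 fell by 1.17 in Chd8neo/- (SE 0.27; edgeR, adjusted p = 0.0129), from 0.935 to 1.53 CPM in Chd8+/+ to 0.336 to 0.714 CPM, and was not called without Chd8neo/- replicate 3 (edgeR, adjusted p = 0.0524). The glycine cleavage gene Amt fell by 0.30 there (SE 0.060; edgeR, adjusted p = 0.00568). In cKO the folate enzyme Mthfd1 rose by 0.28 (SE 0.060; edgeR, adjusted p = 0.0142) and Ahcy, of the methionine cycle, by 0.21 (SE 0.060; edgeR, adjusted p = 0.0476), and both calls were lost without Ctrl replicate 3 or cKO replicate 2 (edgeR, adjusted p between 0.0676 and 0.186). The call of Ahcy was also lost without Ctrl replicate 1 or cKO replicate 1 or 3.

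**Figure D3:**
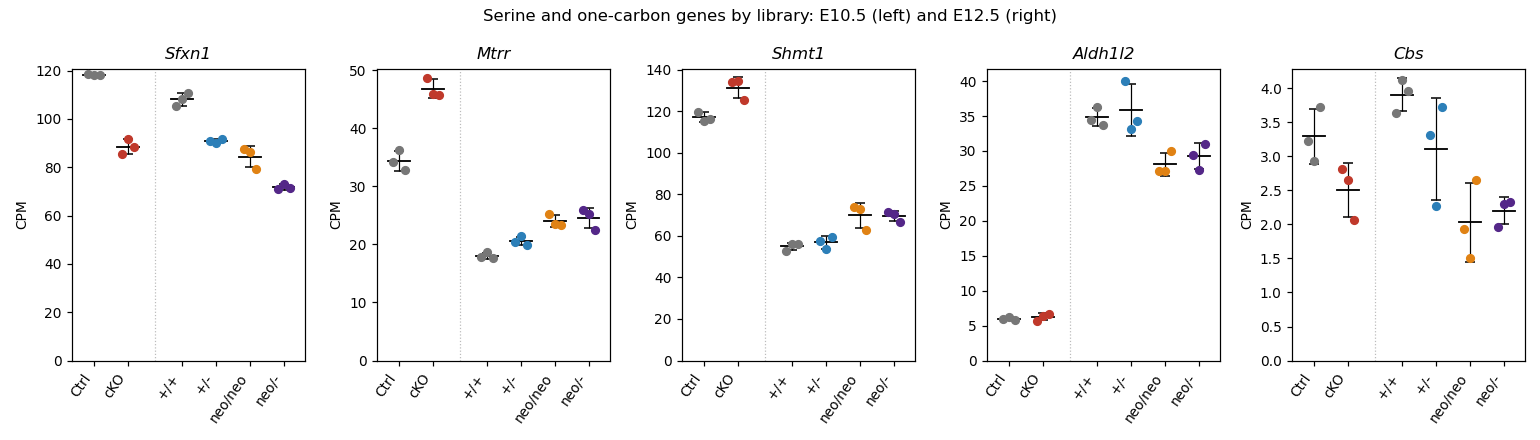
CPM of 5 neighbouring genes of serine and one-carbon metabolism in each library, with mean and SD of 3 libraries; Ctrl and cKO are E10.5 and the other groups E12.5. Sfxn1 lies between 105 and 111 CPM in Chd8+/+ and between 71.1 and 73.2 CPM in Chd8neo/-, with the other E12.5 groups between them, whereas Mtrr lies higher in both hypomorphs and in cKO than in the controls.

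Markers of several cell types moved at E12.5 as well. Of 6 neural progenitor markers, 2 were called higher in Chd8neo/neo (Pax6 and Sox2), where 3.71% of all genes rose. Of 8 neuron markers, 2 (Dcx and Map2) were called lower in both hypomorphs, where 4.45% and 5.99% of all genes fell. The summed level of the 8 was 2931 to 3431 CPM in Chd8neo/neo and 3265 to 3648 CPM in Chd8neo/- against 3572 to 4258 CPM in Chd8+/+. Of 6 erythroid markers, 3 were called higher in Chd8neo/-, among them Hbb-bh1 and Hba-x, where 5.48% of all genes rose. The summed level of the 6 was 4304 to 6863 CPM there against 2982 to 3666 CPM in Chd8+/+. The part of these cells in the changes of Sfxn1, Mtrr, Shmt1 and the other enzymes was not tested.

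Lists of other stress programmes held called genes as well. Over all related lists edgeR called 30 of 163 tested genes in Chd8neo/-, 15 of 163 in Chd8neo/neo and 26 of 164 in cKO. Over all genes tested the shares called were 11.5%, 8.16% and 11.4%. By direction, 5.48% of all genes rose and 5.99% fell in Chd8neo/-, and 3.71% rose and 4.45% fell in Chd8neo/neo. In cKO 5.75% rose and 5.7% fell. In Chd8+/-, edgeR called 0 of the 163 genes tested over all lists, with 6 at an unadjusted p under 0.05 and 1 called by DESeq2. Of 18 ER chaperone genes and genes of the XBP1 and ATF6 branches, Hyou1 and Pdia4 rose in cKO by 0.46 and 0.49 (SE 0.076 and 0.096; edgeR, adjusted p = 0.00436 and 0.0124), the latter not called without cKO replicate 2 (edgeR, adjusted p = 0.0600). In the hypomorphs the branch regulators fell, Atf6 by 0.17 and Xbp1 by 0.22 in Chd8neo/neo (SE 0.046 and 0.062; edgeR, adjusted p = 0.0371 and 0.0447), and by 0.16 and 0.27 in Chd8neo/- (SE 0.046 and 0.062; edgeR, adjusted p = 0.0323 and 0.0137). These 4 calls were made in 10, 10, 12 and 18 of 21 alternatives, and none of them without Chd8+/+ replicate 2 or 3 or, in its own group, replicate 1 (edgeR, adjusted p between 0.0536 and 0.177). Dnajc3 also fell and Pdia3 rose in Chd8neo/-, in 7 and 15 of 21 alternatives, but not without Chd8+/+ replicate 2 or 3 or any Chd8neo/- replicate (edgeR, adjusted p between 0.0514 and 0.169). Of 9 mitochondrial stress genes, 3 rose in Chd8neo/- (Oma1 by 0.46, Clpp by 0.18 and Dnaja3 by 0.16). None of these was called without Chd8+/+ replicate 1 or 3 or Chd8neo/- replicate 2 (edgeR, adjusted p between 0.0573 and 0.165). Clpp and Dnaja3 were also not called without Chd8neo/- replicate 1 or 3, nor Dnaja3 without Chd8+/+ replicate 2. Clpp was also lost without Chd8+/- replicate 1 or 3 or Chd8neo/neo replicate 1 or 2. In the other 2 comparisons edgeR called 0 of the 9, with 4 in Chd8neo/neo and 2 in cKO at an unadjusted p under 0.05, and DESeq2 called 1 and 0. Of 13 immediate early and heat shock genes, which respond to handling, Ier2 rose in both hypomorphs and Hspa1b fell in Chd8neo/neo. Without Chd8neo/neo replicate 2 neither was called in that genotype (edgeR, adjusted p = 0.0579 and 0.102), nor was Hspa1b without Chd8+/+ replicate 1 or 3 or Chd8neo/neo replicate 1. In cKO edgeR called 0 of the 13, with 2 at an unadjusted p under 0.05 and 0 by DESeq2. Of 14 hypoxia genes, Pfkfb3 fell in Chd8neo/-. In Chd8neo/neo and cKO edgeR called 0 of the 14, with 4 and 0 at an unadjusted p under 0.05 and 1 and 0 by DESeq2. Of the 16 p53 targets, Trp53inp1 fell in Chd8neo/neo and Rps27l, Phlda3 and Ccng1 rose in Chd8neo/-. Trp53inp1 was not called in Chd8neo/neo without Chd8+/+ replicate 2 or 3 or Chd8neo/neo replicate 1 or 2 (edgeR, adjusted p between 0.0591 and 0.104). The other 3 were not called without Chd8+/+ replicate 1 or Chd8neo/- replicate 3 (edgeR, adjusted p between 0.0565 and 0.147), nor were Phlda3 and Ccng1 without Chd8+/+ replicate 3 or Chd8neo/- replicate 1 or 2. Ccng1 was also lost without Chd8+/- replicate 3 (edgeR, adjusted p = 0.0585).

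**Figure D4:**
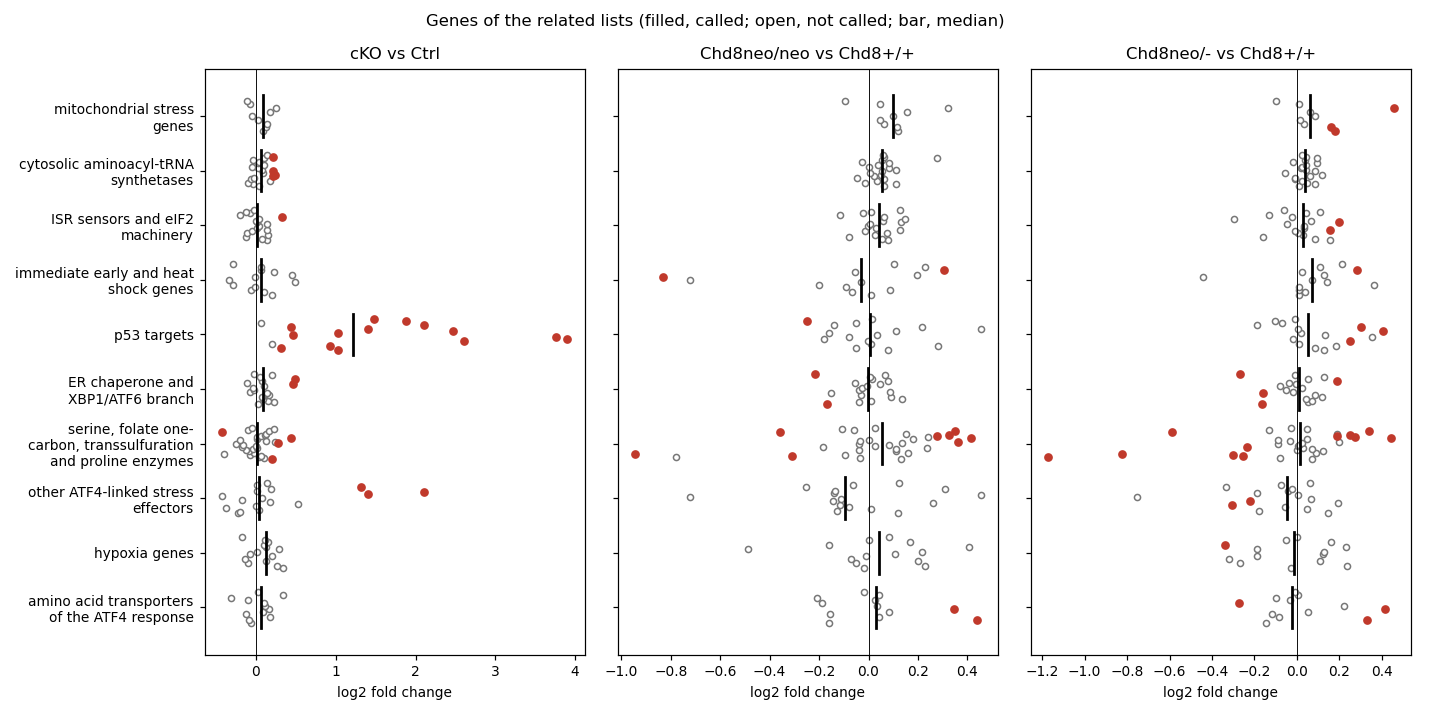
Log2 fold changes of the genes of 10 related lists in cKO against Ctrl and in Chd8neo/neo and Chd8neo/- against Chd8+/+. Each circle is a gene, filled where called, and the bar is the median of the list; the 3 horizontal axes have different ranges. The p53 targets in cKO have a median of 1.22, and the medians of the other lists lie near 0. Outside the p53 targets, 1 filled circle in cKO (Sfxn1) lies below 0, whereas the serine and one-carbon list has filled circles on both sides in all 3 panels.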

How the data were processed

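RNA sequencing counts of 18 libraries (36 deposited samples, 2 runs per library) were used. Per the labels and the study's methods, the authors trimmed paired reads with Trim Galore 0.4.1, aligned them to GRCm38 with TopHat2 2.1.0 and counted them on Ensembl 82 genes with featureCounts 1.5.0. The E12.5 table was counted without a strand option; the command behind the E10.5 table is not given in the sources used here. The deposited values are raw counts per gene and run, without normalization. Runs were summed here. Of 46603 genes, 46005 had a symbol.

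Counts were tested in R 4.3.3 with edgeR 4.0.16 (filterByExpr, TMM, robust quasi-likelihood fit, genotype as the only term). A single fit held the 12 libraries of E12.5, and another the 6 of E10.5. On simulated counts with 200 genes shifted by 1 on the log2 scale, 95.5% were recovered by edgeR for Chd8neo/- against Chd8+/+ (18810 genes) and 94.5% for cKO against Ctrl (18435 genes). The shift was larger than the fall of Atf4 in cKO, and the shifted genes had a mean above 1 CPM, unlike Chac1. Recovery of smaller shifts and of genes as low as Chac1 was not simulated. Gene positions are from GENCODE on GRCm38, promoter windows from RefSeq on GRCm38.p6, and shared stretches of transcripts were counted at the read length of 75 bases.

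The 10 genes and all lists were chosen with earlier results of these data known, and the lists were written from general knowledge. Of each list, the called genes with the lowest adjusted p were named, at most 3 in each direction for cKO, Chd8neo/neo and Chd8neo/- against their controls. Some genes that this rule would name are not reported here. Clpp, Dnaja3 and the markers are named as counts of 5 or fewer. Alternatives were DESeq2 1.42.0, RLE and upper quartile scaling, no filter on low counts, only the groups compared, the replicate number as a block, log2 CPM of Xist as a covariate, each run alone, and each library left out. Deviations of same-numbered libraries correlated above 0.1 in every pair for Chd8neo/neo against Chd8+/- (0.207, 0.27 and 0.324), though the study gives different litters; with this block 572 genes were called there in place of 994. Figures were drawn with matplotlib 3.10.9.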

Additional observations from a re-analysis of the deposited data

Results flagged for a closer look

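Atf4 lay below every Ctrl library in every cKO library at E10.5 (log2 fold change -0.40), and above every Chd8+/+ library in every Chd8neo/neo library at E12.5 (log2 fold change 0.056). The opposite directions drew attention to it. The difference between the stages was not tested, since stage, dissection and pooling cannot be told apart, and the value at E12.5 was not called (edgeR, adjusted p = 0.356).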

How the results depend on the processing

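The fall of Atf4 in cKO was called in all 14 alternatives, with log2 fold changes between -0.49 and -0.35 when a library was left out. The number of the 10 genes called stayed at 1 in cKO and at 0 in the comparisons at E12.5, with the exceptions of Chac1 in Chd8neo/- against Chd8+/+ with only these groups in the fit (1 gene called) and of Psat1 without Chd8+/- replicate 2 (Chd8neo/neo against Chd8+/+ and against Chd8+/-, 0 to 1 genes called with a library left out). The replicate block changed none of these counts, also for Chd8neo/neo against Chd8+/-, the comparison in which the numbers paired the libraries.

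Of 1190 values of the 10 genes under alternatives, 42 had the opposite sign, all for differences that were not called (lowest adjusted p 0.655). With a library left out, Trib3 in cKO lay between -1.02 and 0.69, and Chac1 between -0.56 and 0.35 in cKO and between -0.43 and 0.40 in Chd8neo/neo against Chd8+/-. Ddit3 in Chd8neo/- against Chd8neo/neo lay between -0.10 and 0.013. Asns lay between -0.016 and 0.10 in Chd8+/- and between -0.0015 and 0.14 in Chd8neo/neo against Chd8+/+, between -0.032 and 0.11 in Chd8neo/neo against Chd8+/-, and between -0.033 and 0.11 in Chd8neo/- against Chd8neo/neo. Phgdh lay between -0.053 and 0.030 in Chd8+/- and between -0.018 and 0.0014 in Chd8neo/- against Chd8neo/neo, and Psat1 between -0.12 and 0.070 in Chd8+/-. Psph lay between -0.053 and 0.028 in Chd8+/-, -0.011 and 0.079 in Chd8neo/neo, -0.020 and 0.11 in Chd8neo/-, and -0.047 and 0.083 in Chd8neo/- against Chd8neo/neo. Shmt2 lay between -0.077 and 0.023 in Chd8neo/neo, -0.15 and 0.017 in Chd8neo/-, -0.13 and 0.044 in Chd8neo/- against Chd8neo/neo, and -0.15 and 0.022 in cKO. Mthfd2 lay between -0.063 and 0.041 in Chd8neo/neo.

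With the first run alone, opposite signs were found for Ddit3 (0.011), Asns (-0.0084) and Phgdh (0.0014) in Chd8neo/- against Chd8neo/neo, Chac1 in Chd8+/- (0.0092) and Mthfd2 in Chd8neo/neo (0.027). With the second run alone they were found for Chac1 (0.38) and Asns (-0.012) in Chd8neo/neo against Chd8+/-, Psph in Chd8+/- (0.051), and Psph (-0.018) and Shmt2 (0.0020) in Chd8neo/- against Chd8neo/neo. With the replicate block Chac1 in cKO was at -0.049.

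The numbers of list genes called moved more. Of the genes of all lists, 15 were called in Chd8neo/neo, 23 by DESeq2 and 9 with only the groups compared, and 6 to 35 with a library left out. In Chd8neo/- 30 were called, 18 with the replicate block and 18 with the second run alone, and 13 to 33 with a library left out. In cKO 26 were called, and 17 to 27 with a library left out, the lowest without cKO replicate 2. Of the serine, one-carbon and proline genes 11 were called in Chd8neo/-, 7 with the replicate block and 7 with the second run alone; with a library left out there were 4 to 14 in Chd8neo/neo, 6 to 11 in Chd8neo/- and 2 to 5 in cKO. Of the other ATF4-linked effectors in Chd8neo/-, 1 was called with upper quartile scaling, with Xist as a covariate and with the second run alone, 0 with the replicate block and with the first run alone, and 0 to 3 with a library left out, against 0 to 4 in Chd8neo/neo. Of the p53 targets in Chd8neo/neo, DESeq2 called 2 and the fit of only the groups compared 0, with 0 to 3 when a library was left out, and in Chd8neo/- 1 was called with Xist as a covariate and 0 to 3 with a library left out. Of 58 calls of named list genes, 32 were lost under at least 1 alternative and 0 reversed. Over all genes, counts moved by more than 1.5 times in Chd8neo/neo against Chd8+/+ from 1534 to 430 with only the groups compared and to 1004 with Xist as a covariate, and in Chd8neo/neo against Chd8+/- from 994 to 1788 with DESeq2, 572 with the replicate block, 326 with Xist as a covariate and 42 with only the groups compared. With a library left out, edgeR called 538 to 2483 genes in cKO (2110 with all libraries; lowest without cKO replicate 2), 1015 to 2574 in Chd8neo/- (2158; lowest without Chd8neo/- replicate 2), 435 to 2605 in Chd8neo/neo (1534; without its replicates 2 and 3) and 23 to 2100 in Chd8neo/neo against Chd8+/- (994; without Chd8neo/neo replicates 2 and 3). Totals were 15 by DESeq2 against 4 in Chd8+/-, and 27 by DESeq2 against 3 in Chd8neo/- against Chd8neo/neo, where edgeR called 9 with no filter on low counts and 23 without Chd8neo/neo replicate 3. The cause of these shifts was not tested.

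Chac1 and Trib3 had the fewest counts of the 10 genes, and their intervals were the widest. Each group had 3 libraries. At E10.5 each library pooled 2 embryos, and the genotypes of the Ctrl libraries are not given one by one.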
